A study of Solanum lycopersicum with 12 samples.

Results

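The response of tomato seedlings to 3 h of abscisic acid (ABA) was read by comparing 3 libraries from seedlings given 10 µM ABA with 3 from mock-treated seedlings. Of 34075 gene IDs in the count table, 21233 had at least 10 counts in 3 or more of these 6 libraries and were tested; they make up the comparison described here, which uses 6 of the 12 samples of the series. Wild-type whole seedlings of Solanum lycopersicum spent 8 days in liquid Murashige and Skoog medium, from 3 days after germination, at 22 °C under days of 16 h light. The mock group received fresh medium with 0.1% DMSO. For the ABA medium the labels give the hormone and its dose but no DMSO content, so a difference in solvent cannot be told apart from the hormone. How many seedlings went into a library is not given in the sources used here. Roots and shoots were harvested together, so a change in 1 organ, fewer cells of a type and less RNA per cell cannot be told apart.

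ABA is the plant hormone that accumulates under water deficit and in maturing seeds. Among its actions, it closes stomata, restrains growth and switches on protective proteins. When it binds its PYR/PYL receptors, the complex holds clade A PP2C phosphatases inactive. SnRK2 kinases are thereby released and phosphorylate AREB/ABF transcription factors, which bind the promoters of ABA-responsive genes. The table holds IDs of the Solyc type and no gene names, and the RefSeq gene table given with it holds 0 IDs of this type. Gene groups below are therefore lists of IDs held, from general knowledge, to belong to the tomato families named; membership was not checked against an annotation, and each family name is as sure as its list. The 19 lists hold 135 IDs, 130 of them present in the table and 112 tested.

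The 6 libraries held between 21863058 and 22098966 counts, and between 24246 and 24458 IDs had at least 1 read in each. Levels are given as CPM, counts scaled to the size of each library with edgeR's TMM factors; CPM takes no account of gene length, so levels are compared between libraries and not between genes. Libraries of 1 group always differed by more than counting noise, with a chi-square of 7.47 to 25.1 per degree of freedom. The spread within groups was not equal: fitted alone, the mock libraries had a biological coefficient of variation of 0.158 and the ABA libraries of 0.0975. Library totals were nearly alike in the 2 groups.

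At 3 h of ABA 19.9% of the genes tested were called. Of 21233 genes, 2094 rose (9.86%) and 2128 fell (10.0%) at an adjusted p under 0.05 in edgeR's quasi-likelihood test. How calls divide between the directions depends on the scaling, which centres the median change near 0, and on single libraries: 1796 rose and 2098 fell with library totals as factors, and 1558 rose and 1286 fell without ABA replicate 2. Most called changes were modest. Raised genes had a median fold of 1.83 (quartiles 1.45 and 3.10) and lowered genes a median of 1.82 (1.45 and 2.75). The upper end was longer among raised genes: 114 rose at least 16-fold, while 31 fell by that much. Between 4-fold and 16-fold there were 297 raised and 261 lowered genes, between 2-fold and 4-fold 518 and 597, and under 1.5-fold 623 and 645. In all 929 genes rose (4.38%) and 889 fell (4.19%) with a fitted fold of at least 2. A fitted fold above 2 does not by itself show a change of more than 2-fold. Tested against that size directly, with edgeR's glmTreat, 517 genes rose (2.43%) and 342 fell (1.61%) by more than 2-fold. Over all tested genes the median log2 fold change was -0.0040.

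**Figure D1:**
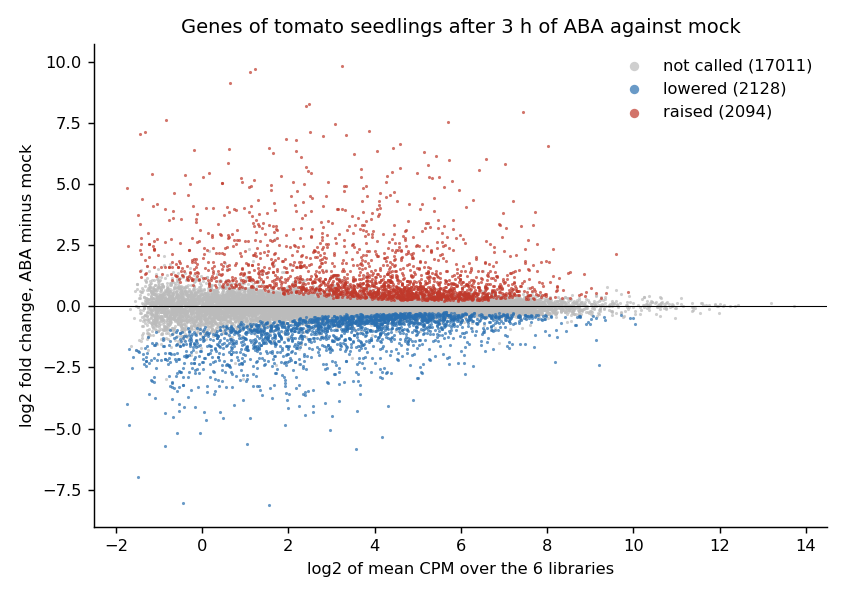
Each point is 1 of the 21233 tested genes, placed by the log2 of its mean CPM over the 6 libraries and by its log2 fold change, ABA minus mock. The 2094 raised genes (red) reach larger changes than the 2128 lowered ones (blue), and grey points did not pass the test.

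In the raised genes no overlap between the 3 mock and the 3 ABA libraries was seen for 2090 of 2094, and in the lowered genes for 2109 of 2128. Such separation was present in 38.4% of all tested genes, called or not. The calls depended on single libraries at the margin. When each of the 6 libraries was left out in turn, 1399 raised and 1116 lowered genes were called in all 6 fits. The number of lowered genes was 1286 without ABA replicate 2 and 1405 without ABA replicate 3. No gene called in the fit over all libraries was called in the opposite direction in any of the 17 alternative fits.

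Raised genes took up a larger part of each ABA library. They held 5.55%, 5.55% and 5.83% of all counts in the mock libraries and 11.1%, 10.5% and 9.64% in the ABA libraries. Lowered genes held 7.83%, 8.29% and 8.20% in mock and 5.11%, 4.73% and 4.73% in ABA. These shares describe the genes that the test chose and are no test of their own.

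Precision differed with abundance. The median standard error of the log2 fold change was 0.39 in the 1628 genes with a mean under 1 CPM, 0.21 in the 6855 genes at 1 to 10 CPM, 0.115 in the 10849 genes at 10 to 100 CPM and 0.12 in the 1901 genes at 100 CPM and over. In the same order, the smallest called log2 changes were 0.86, 0.35, 0.23 and 0.28. Precision was thus no better in the highest class than in the one below it. In genes under 1 CPM, changes smaller than 0.86 were not called.

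**Figure D2:**
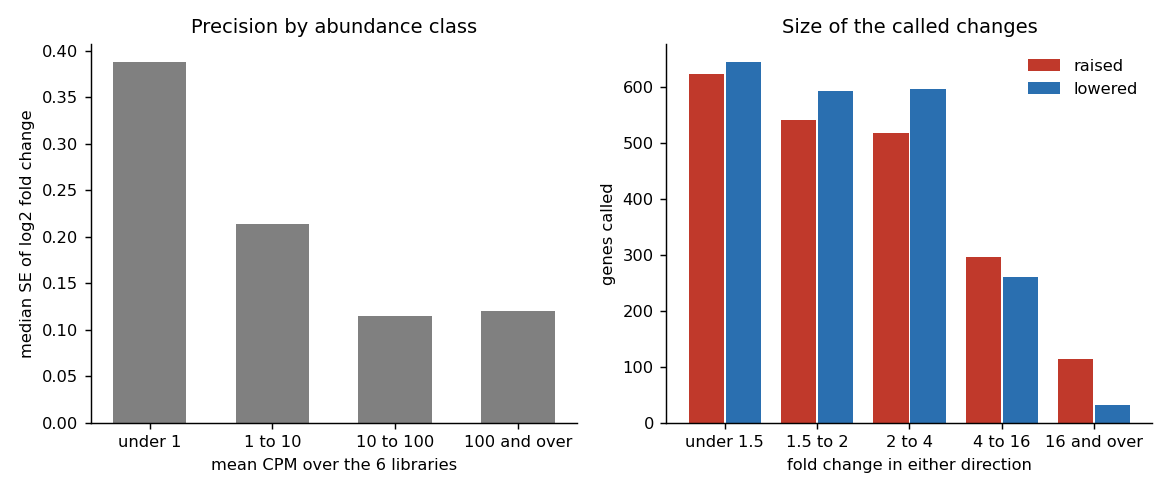
The left panel gives the median standard error of the log2 fold change in 4 classes of mean CPM over the 6 libraries, 0.39 in the lowest. The right panel counts raised (red) and lowered (blue) genes by fold change, with 114 raised and 31 lowered genes at 16-fold and over.

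Some called genes had almost no counts in 1 group. Such a gene could enter the test only through the other group, where it had at least 10 counts in each library, so these numbers describe what the filter let through. Among raised genes 23 had 3 counts or fewer over the 3 mock libraries together, 6 of them 0, and 12 of the 23 had at least 100 counts over the ABA libraries. Among lowered genes 10 had 3 counts or fewer over the ABA libraries, 2 of them 0, and 2 of the 10 had at least 100 counts in mock. With so few reads on 1 side, absence from the seedling is not shown.

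Within the core of ABA signalling, listed phosphatases mostly rose and listed receptors mostly fell. The count of each list below stands against 9.86% raised and 10.0% lowered over all tested genes; 1 call in a list of 4 or 5 genes is near the 19.9% called in either direction. Of 9 listed clade A PP2C phosphatases, the repressors of the pathway, 7 rose (6 without mock replicate 2 or 3 or any of the ABA libraries), against 9.86% of all tested genes; the median log2 fold change of the list was 2.54. Solyc03g096670.3 was at 4.69, 5.09 and 3.98 CPM in mock replicates 1 to 3 and at 288, 263 and 216 CPM in ABA, a log2 rise of 5.80 ± 0.15 (SE; adjusted p = 8.4e-09). The lowest ABA library lay far above the highest mock library. Solyc07g040990.4 went from 30.6, 34.3 and 29.4 to 325, 315 and 283 CPM, again with the groups well apart, by 3.29 ± 0.11 (SE; adjusted p = 3.4e-08). The other 5 that rose had log2 fold changes between 0.41 and 6.30, and the 2 that did not pass had 0.51 and -0.09.

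Among 14 tested PYR/PYL receptors, the proteins that bind the hormone, 9 fell, against 10.0% of all tested genes; the list's median was -0.88 on the log2 scale. Solyc10g085310.1 stood at 31.9, 30.7 and 32.9 CPM in mock and at 6.45, 3.71 and 6.36 CPM in ABA, a change of -2.53 ± 0.19 (SE; adjusted p = 4.7e-06). For Solyc06g050500.2 the mock libraries held 28.5, 34.3 and 27.7 CPM and the ABA libraries 10.6, 5.75 and 9.08 CPM, a log2 change of -1.83 ± 0.19 (SE; adjusted p = 4.8e-05). In both genes the groups did not overlap, and ABA replicate 2 was the lowest library. Not all receptors moved: Solyc01g095700.3, chosen after its values were seen, had 62.3, 73.6 and 85.5 CPM in mock and 75.9, 68.9 and 79.2 CPM in ABA, and the 95% interval of its log2 fold change was -0.23 to 0.27. Solyc02g076770.1, the untested receptor on the list, had 0 counts in mock and 3 over the ABA libraries.

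Changes in the kinases were small and those in the bZIP factors larger. Of 7 listed SnRK2 kinases 3 rose, and 2 without ABA replicate 1 or 2. The largest called change was that of Solyc04g012160.4, from 37.8, 37.0 and 34.2 to 54.1, 51.8 and 52.1 CPM, 0.54 ± 0.09 (SE; adjusted p = 0.0014) on the log2 scale. Solyc01g108280.3 had 79.3, 77.0 and 73.4 CPM in mock and 98.6, 105 and 102 CPM in ABA, a log2 change of 0.41 ± 0.08 (SE; adjusted p = 0.0048). These were small shifts of tightly spaced libraries. Of 5 AREB/ABF/ABI5 factors, the transcription factors that the kinases activate, 4 rose; 3 did with library totals and on omission of mock replicate 1 or 2, iSB09 replicate 1 or each ABA library. Solyc04g078840.3 rose from 36.3, 34.2 and 33.4 to 196, 190.0 and 168 CPM, by 2.42 ± 0.10 (SE; adjusted p = 8.0e-08), and Solyc01g108080.4 from 33.9, 31.7 and 32.9 to 111, 128 and 98.1 CPM, by 1.77 ± 0.10 (SE; adjusted p = 1.1e-06). The weakest of the 4 calls, Solyc09g009490.4 at 1.06 (adjusted p = 0.041), came from a gene at 0.955, 0.746 and 1.47 CPM in mock.

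Genes of ABA turnover changed on both sides. Among 5 listed ABA 8'-hydroxylases, the cytochrome P450 enzymes that begin ABA breakdown, 3 rose and 1 fell. Solyc08g075320.4 climbed from 3.64, 3.13 and 4.15 CPM to 85.4, 76.5 and 76.2 CPM, a log2 change of 4.44 ± 0.13 (SE; adjusted p = 1.9e-08). A smaller rise was that of Solyc01g108210.4, from 16.7, 15.0 and 11.7 to 23.4, 22.6 and 24.9 CPM, by 0.71 ± 0.13 (SE; adjusted p = 0.0024). Solyc04g080650.4 went the other way, from 4.32, 5.46 and 6.96 to 1.96, 3.99 and 2.49 CPM (log2 change -0.99 ± 0.28, SE; adjusted p = 0.03), a call that was lost on omission of replicate 2 or 3 of mock or 1 or 3 of ABA (adjusted p 0.072 to 0.11). The uncalled member, Solyc08g005610.3, had a log2 fold change of 0.14. Not all members rose detectably, and the 1 called fall was not stable. Of 4 listed ABA biosynthesis genes 2 rose and 1 fell. Solyc07g056570.1 had 8.46, 6.63 and 7.44 CPM in mock and 42.2, 41.4 and 28.7 CPM in ABA, a log2 change of 2.32 ± 0.22 (SE; adjusted p = 2.3e-05). Solyc07g066480.3 moved little, from 22.2, 18.6 and 26.2 to 30.1, 31.1 and 29.7 CPM, by 0.44 ± 0.12 (SE; adjusted p = 0.023), and lost its call without mock replicate 1 or 2 or any 1 ABA library (adjusted p 0.057 to 0.081). The fall of Solyc08g016720.1, from 2.05, 1.96 and 2.51 to 1.11, 1.02 and 1.15 CPM, had an adjusted p of 0.0499 and the call was lost whichever of the 6 libraries was left out (adjusted p 0.079 to 0.15).

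The list of LEA and dehydrin proteins had the highest median of the 18 lists with tested members. All 4 tested LEA and dehydrin genes, whose products shield membranes and proteins in drying tissue, rose, with log2 fold changes between 1.33 and 6.53 and a list median of 4.44. Solyc02g084850.3 stood at 4.82, 5.97 and 5.92 CPM in mock and at 579, 428 and 542 CPM in ABA, by 6.53 ± 0.23 (SE; adjusted p = 3.6e-08). Solyc02g062390.3 had 3.23, 3.69 and 3.07 CPM in mock and 27.6, 17.8 and 27.6 CPM in ABA, a log2 change of 2.87 ± 0.23 (SE; adjusted p = 7.5e-06). Each of the 4 genes had separate groups, as did 2090 of all 2094 raised genes. Solyc03g116390.4 had uneven mock libraries, at 0.864, 0.746 and 6.96 CPM in replicates 1 to 3, and its log2 rise was 6.01 ± 0.67 (SE). The 3 tested ASR genes, small hydrophilic proteins named for ABA, stress and ripening, went different ways although their IDs lie close together on chromosome 4. Solyc04g071610.4 rose from 68.3, 91.0 and 80.2 to 227, 185 and 202 CPM, by 1.36 ± 0.29 (SE; adjusted p = 0.0067). Solyc04g071600.3 rose from 1.55, 1.77 and 2.29 to 6.18, 4.73 and 6.02 CPM, by 1.59 ± 0.23 (SE; adjusted p = 0.00064). Solyc04g071580.3 fell from 77.3, 119 and 80.2 to 38.9, 48.0 and 43.3 CPM, by 1.09 ± 0.16 (SE; adjusted p = 0.00053). Whether reads were shared between these IDs was not tested.

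**Figure D3:**
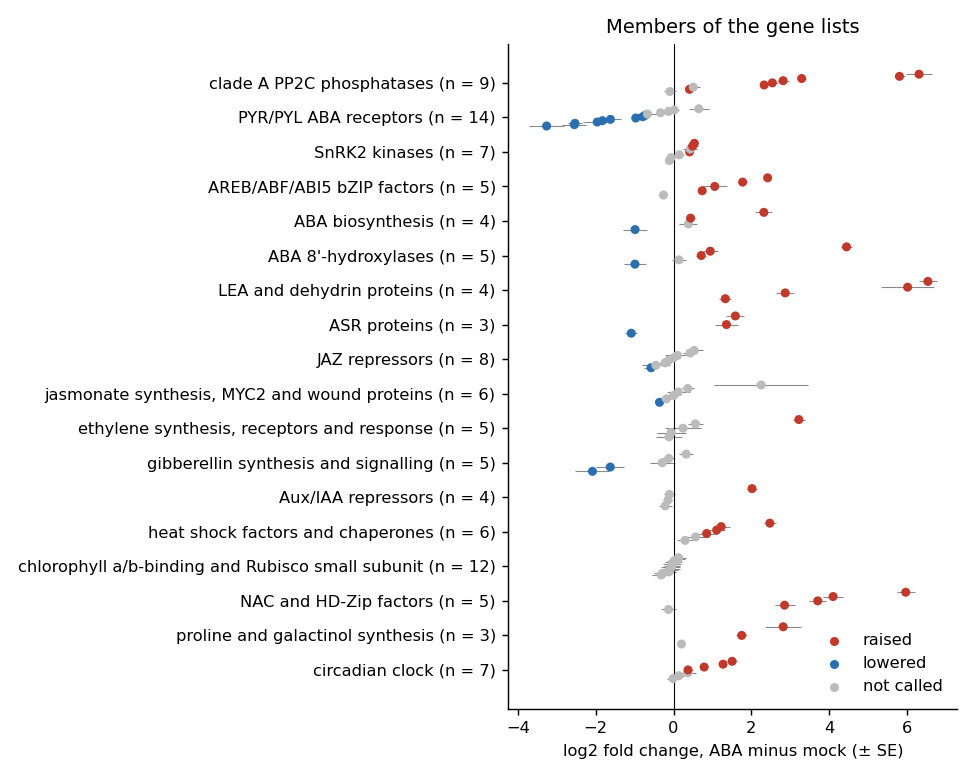
Log2 fold changes, ABA minus mock, with standard errors for the 112 tested members of 18 lists; red points rose, blue points fell and grey points did not pass the test. Phosphatases, LEA and dehydrin proteins and NAC and HD-Zip factors hold the largest rises, receptors lie mostly below 0, and all photosynthesis genes lie near 0.

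Stress transcription factors and osmolyte enzymes rose as well. Of 5 listed NAC and HD-Zip factors, families with members that act in drought and senescence responses, 4 rose. Solyc01g096320.3 rose from 1.91, 2.01 and 1.08 to 122, 108 and 80.9 CPM, by 5.96 ± 0.24 (SE; adjusted p = 7.1e-08). Solyc07g063410.3 rose from 2.09, 2.75 and 2.34 to 37.3, 32.4 and 23.9 CPM, by 3.70 ± 0.21 (SE; adjusted p = 1.0e-06). Its neighbour by number, Solyc07g063420.3, did not pass, with 4.003, 3.83 and 4.07 CPM in mock and 3.91, 3.99 and 2.96 CPM in ABA; it was chosen after its values were seen. Of 3 tested genes of proline and galactinol synthesis, which lead to compatible solutes, 2 rose. Solyc06g019170.3 went from 77.1, 80.1 and 88.7 to 245, 332 and 251 CPM, by 1.75 ± 0.14 (SE; adjusted p = 9.1e-06), and Solyc02g084980.3 from 1.91, 1.35 and 1.04 to 10.3, 10.1 and 9.94 CPM, by 2.82 ± 0.46 (SE; adjusted p = 0.0013). Tested against a 2-fold change, both passed (adjusted p = 0.0011 and 0.013). None of the 3 listed CBF cold-response factors could be tested: they had 25, 2 and 0 counts over the mock libraries and 13, 0 and 1 over the ABA libraries.

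**Figure D4:**
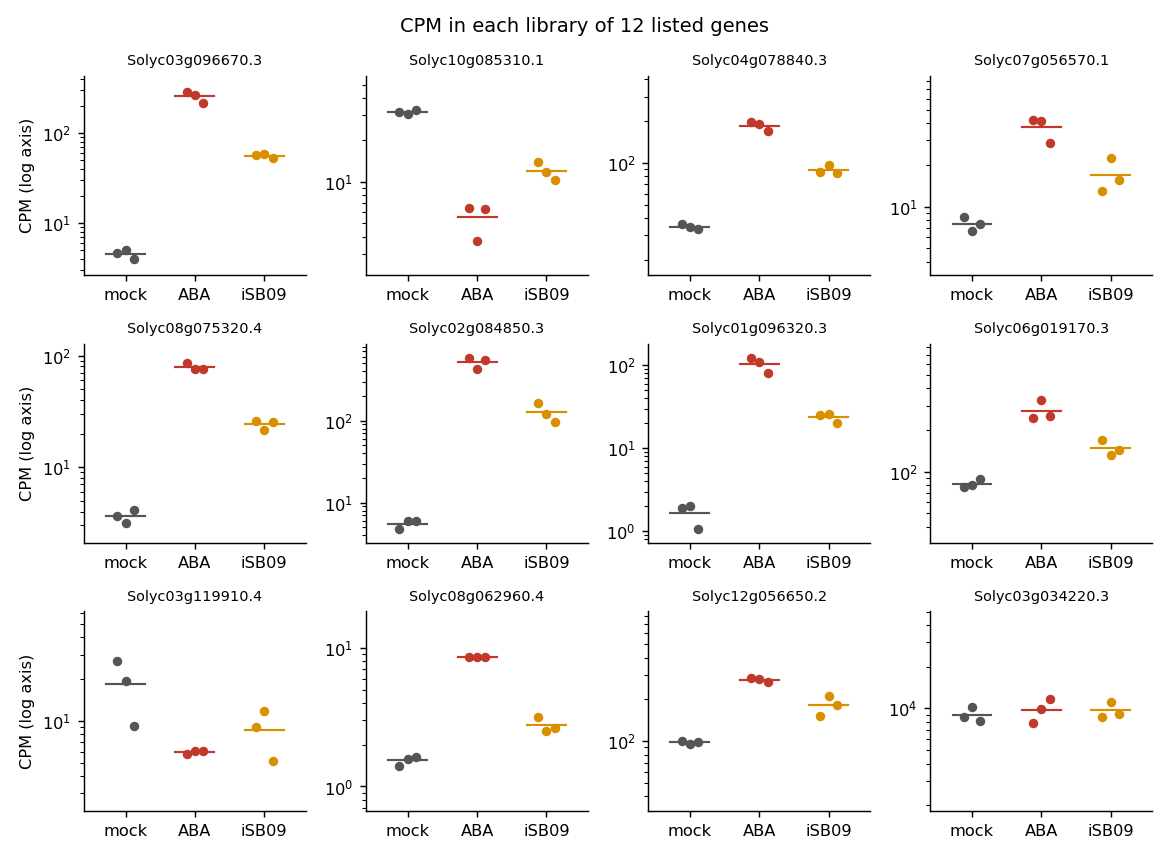
CPM on a log axis in each library (points) with the group mean (line) for 12 listed genes, in mock, ABA and iSB09 seedlings. In 9 of the 12, the ABA libraries lie above every other library; Solyc10g085310.1 and Solyc03g119910.4 are lower in ABA than in mock, and Solyc03g034220.3 overlaps between groups.

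Heat shock genes were among those raised. Chaperones refold and protect proteins. Of 6 tested heat shock factors and chaperones 4 rose, and the list's median was 0.98 on the log2 scale. Solyc08g062960.4 had 1.41, 1.59 and 1.64 CPM in mock and 8.67, 8.62 and 8.56 CPM in ABA, a log2 change of 2.47 ± 0.16 (SE; adjusted p = 1.7e-06). Solyc03g115230.3 rose from 24.4, 38.5 and 36.7 to 76.1, 68.3 and 88.4 CPM, by 1.22 ± 0.22 (SE; adjusted p = 0.0023). The first had closely spaced libraries in both groups; in the second the libraries of each group were further apart but did not overlap. The 2 members that did not pass had log2 fold changes of 0.30 and 0.56 and overlapping groups. With limma voom, with a replicate block, and on omission of each mock library or of replicate 1 or 3 of ABA, 3 of the 6 rose.

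Lists of other hormones are short, and with 19.9% of all tested genes called, nothing about these lists is read from the counts. Gibberellins promote growth. Of 5 tested genes of gibberellin synthesis and signalling 2 fell. Solyc03g119910.4 was at 26.9, 19.4 and 9.13 CPM in mock, with replicate 3 the lowest of the 3, and at 5.78, 6.07 and 6.07 CPM in ABA, a log2 change of -1.63 ± 0.36 (SE; adjusted p = 0.0092). Solyc11g072310.2 fell from 2.50, 2.24 and 3.72 to 0.622, 0.603 and 0.765 CPM, by 2.08 ± 0.44 (SE; adjusted p = 0.0061). Both calls were kept in each fit without 1 library. Of 4 Aux/IAA repressors, which hold auxin responses off, 1 rose: Solyc03g120390.3 had 7.87, 8.21 and 7.22 CPM in mock and 35.6, 31.8 and 26.9 CPM in ABA, by 2.02 ± 0.13 (SE; adjusted p = 2.0e-06). The remaining 3 had log2 fold changes between -0.21 and -0.11 and overlapping groups. Of 5 tested ethylene genes 1 rose, Solyc09g089580.4, from 5.32, 6.998 and 8.61 to 68.6, 64.6 and 61.9 CPM, by 3.22 ± 0.15 (SE; adjusted p = 2.2e-07); 2 of the ethylene list rose in DESeq2, in limma voom, without a filter, with a replicate block and without mock replicate 3.

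In the jasmonate lists 2 of 14 tested genes were called, against 19.9% of all tested genes, which is no result about these lists. Of 8 tested JAZ repressors 1 fell, Solyc06g068930.2, from 5.69, 7.32 and 8.82 to 4.36, 4.96 and 5.31 CPM (log2 change -0.58 ± 0.18, SE; adjusted p = 0.041). In the list of jasmonate synthesis, MYC2 and wound proteins 1 of 6 fell, Solyc08g076930.1, from 39.8, 35.2 and 30.7 to 29.7, 25.7 and 26.8 CPM (log2 change -0.36 ± 0.11, SE; adjusted p = 0.0485). Neither call held: the first was lost on omission of iSB09 replicate 3, of mock replicate 2 or 3 or of each library of the ABA group (adjusted p from 0.0501 to 0.14), the second on omission of iSB09 replicate 1, of mock replicate 1 or 2 or of each ABA library (from 0.058 to 0.18), and each in some other alternatives. Solyc03g020050.3, chosen after its values were seen, had the largest fitted change of these lists, at 2.25, but it rested on ABA replicate 1: its libraries held 0.0910, 0.0467 and 0.995 CPM in mock and 4.45, 0.371 and 0.717 CPM in ABA, and it did not pass (adjusted p = 0.23).

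Markers of the shoot did not change detectably, and 4 of 7 markers of time of day did. With edgeR, none of 12 tested chlorophyll a/b-binding and Rubisco small subunit genes, which serve photosynthesis, passed, and 0 had an unadjusted p under 0.05. By adjusted p none passed in DESeq2 or in limma voom either. The median of the list on the log2 scale was -0.05. Their summed level was 33334, 37006 and 26409 CPM in mock and 27002, 30965 and 37545 CPM in ABA. The libraries thus differed by more within groups than the groups differed from each other. Solyc03g034220.3 had 8605, 10163 and 8158 CPM in mock and 7833, 9919 and 11650.0 CPM in ABA; the 95% interval of its log2 fold change was -0.31 to 0.57, and changes of that size could have been missed.

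Among 7 genes of the circadian clock, 4 passed the test upwards. The 3 that did not pass had log2 fold changes of 0.14, 0.36 and -0.01, and the list's median was 0.37 on the log2 scale. Solyc04g071990.3 rose from 39.8, 34.6 and 37.1 to 88.6, 91.5 and 88.8 CPM, by 1.27 ± 0.08 (SE; adjusted p = 1.7e-06), and Solyc12g056650.2 from 101, 94.9 and 98.2 to 285, 282 and 268 CPM, by 1.505 ± 0.12 (SE; adjusted p = 7.8e-06). The libraries of each group lay close together in both genes. Summed over the 7 genes, the level was 637, 566 and 551 CPM in mock and 846, 889 and 886 CPM in ABA. Clock transcripts follow the hour of the day, and the hour of harvest of each group is not given in the sources used here; harvest time and hormone therefore cannot be told apart. With library totals as factors, and on omission of mock replicate 2 or 3, iSB09 replicate 1 or any 1 library of the ABA group, 3 of the 7 rose.

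Outside the lists, the IDs that gained and lost the most CPM are given without names. Solyc08g067960.3 gained most, from 319.5, 277 and 265 CPM in mock to 1452, 1101 and 1210.0 CPM in ABA, a log2 change of 2.13 ± 0.20 (SE; adjusted p = 2.5e-05). Solyc04g014510.3 lost most, from 942, 1182 and 858 to 169, 199 and 205 CPM, a log2 change of -2.38 ± 0.20 (SE; adjusted p = 9.1e-06). Groups that do not overlap were part of the rule that chose them. Both passed the test against a 2-fold change (adjusted p = 0.00071 and 0.00017). The next in each direction changed less in proportion. Solyc04g051800.3 had 913, 679 and 651 CPM in mock and 961, 1261 and 1159.9 CPM in ABA (log2 change 0.59 ± 0.18, SE; adjusted p = 0.042), and Solyc09g007920.4 had 1500.0, 1466 and 959 and 821, 812 and 774 CPM (log2 change -0.71 ± 0.17, SE; adjusted p = 0.014). Neither call was stable: the former was lost with a replicate block (adjusted p = 0.062) and on omission of iSB09 replicate 3 or of replicate 2 or 3 of either mock or ABA (adjusted p from 0.0507 to 0.15), the latter on omission of replicate 1 or 2 of mock or 2 or 3 of ABA (adjusted p 0.0505 to 0.057).

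The same genes were measured in 3 libraries of seedlings given 20 µM iSB09, a compound the series tests for ABA-like action, for the same 3 h. The doses differ, and the genes below were chosen for their response to ABA, so the values describe them and do not rank the agents. They are a selection from the lists, all raised by ABA. Listed genes that ABA lowered are left out. In the direct test of iSB09 against ABA, 5.95% of all tested genes were called, 1.79% higher and 4.15% lower in iSB09; against the same mock libraries, 5.2% were called for iSB09. Solyc01g096320.3 had 25.04, 25.7 and 20.0 CPM in iSB09, a log2 difference from ABA of -2.14 ± 0.18 (SE; adjusted p = 0.00011). Solyc09g089580.4 had 19.3, 21.6 and 18.9 CPM, a difference of -1.71 ± 0.14 (SE; adjusted p = 8.0e-05), and Solyc03g120390.3 11.1, 12.3 and 13.9 CPM, a difference of -1.33 ± 0.13 (SE; adjusted p = 0.0002). All 3 lay between mock and ABA in every iSB09 library. The heat shock list gave 3.15, 2.50 and 2.63 CPM for Solyc08g062960.4, with -1.64 ± 0.15 (SE; adjusted p = 0.00014). Solyc06g076020.3, chosen after its values were seen, had 30.2, 45.8 and 43.5 CPM in mock, 109, 81.1 and 67.0 CPM in ABA and 32.2, 41.2 and 29.5 CPM in iSB09, where it overlapped mock; its difference from ABA was -1.32 ± 0.21 (SE; adjusted p = 0.0031). Solyc04g071600.3, of the ASR list, had 4.74, 7.73 and 7.32 CPM in iSB09, which did not differ detectably from ABA (log2 change 0.22 ± 0.21, SE; adjusted p = 0.72).

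Solyc IDs carry the chromosome and, within it, a number that in the main follows gene order. By chromosome, the share of tested genes that rose lay between 7.62% on chromosome 10 and 12.3% on chromosome 6, and the share that fell between 8.92% on chromosome 1 and 12.2% on chromosome 10. Neighbours tended to share a direction. For 21074 tested IDs with a place in this order, the nearest tested ID on each side of a raised gene was itself raised in 16.5% of 4158 cases and lowered in 7.89%. Beside a lowered gene it was lowered in 16.6% of 4225 cases and raised in 7.76%. Over all of these IDs 9.87% rose and 10.0% fell. Whether overlapping transcripts or near-identical tandem copies that share reads add to these shares was not tested.

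**Figure D5:**
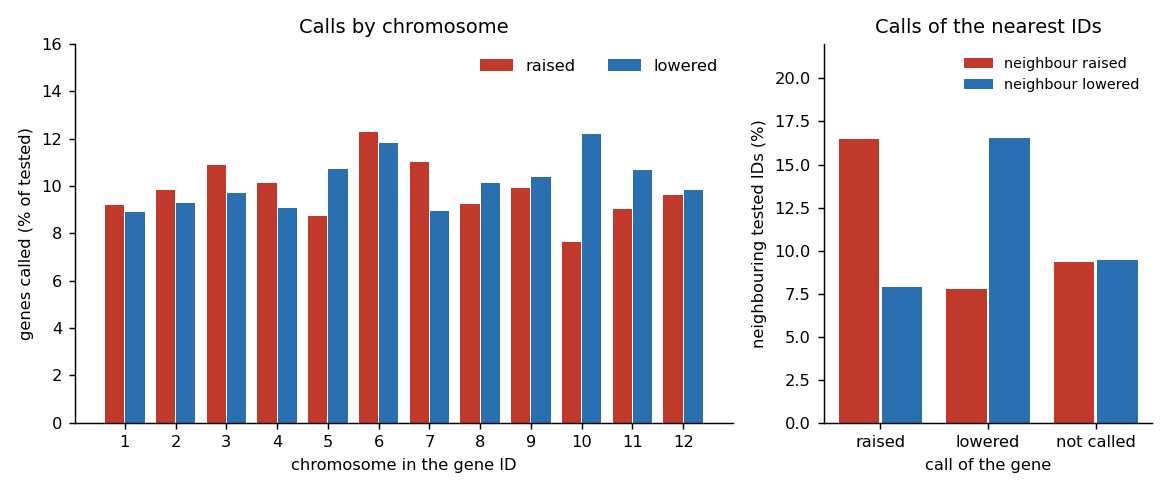
The left panel gives the percentage of tested genes that rose (red) or fell (blue) on each of 12 chromosomes, with the highest share raised on chromosome 6 and the highest lowered on chromosome 10. The right panel gives the percentage of nearest tested IDs that rose or fell beside raised, lowered and uncalled genes; beside raised genes 16.5% rose and beside lowered genes 16.6% fell.

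Runs of tested IDs called in the same direction reached 7 genes. A run of 7 lowered genes lay on chromosome 11, with log2 fold changes from -2.24 to -0.64, and a run of 6 on chromosome 10, from -2.61 to -0.81. There were 5 runs of 5 raised genes: 3 on chromosome 6 and 1 each on chromosomes 3 and 7. The run on chromosome 3 began with Solyc03g116390.4 of the LEA and dehydrin list and had log2 fold changes from 1.104 to 7.63. Another, on chromosome 6, ended with Solyc06g051940.4 of the phosphatase list and ran from 0.40 to 6.30. Single raised or lowered genes without such a neighbour were far more frequent, at 1451 raised and 1498 lowered. These runs were picked out after their values were seen.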

How the data were processed

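Per the labels' protocols, strand-specific mRNA libraries of the DNBSEQ type were made from seedling RNA. The authors deposited read counts per gene ID as 1 table of whole numbers. FastQC, cutadapt, STAR and DESeq2 are named, without versions or roles, in the submitters' processing notes; build, annotation, counter and strand setting are not given in the sources used, so overlapping genes and near-identical copies may have shared reads. Columns were matched to samples by name; 3 columns matched no label and were not used, which leaves the 3 iCB samples not analysed here.

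Genes with at least 10 counts in 3 or more of the 6 mock and ABA libraries were kept. The 9 libraries of mock, ABA and iSB09 entered 1 edgeR 4.0.16 fit (R 4.3.3; TMM factors, 1 coefficient per treatment, no replicate term, 6 residual degrees of freedom), tested two-sided with glmQLFTest, or with glmTreat against a log2 change of 1. P-values were adjusted by Benjamini-Hochberg across 21233 genes and called under 0.05; standard errors come from the F statistic. The code was tested on simulated data in which all genes and groups shared the same spread, unlike in these libraries. The design text calls the 3 samples of a group independent biological replicates. Alternatives were other factors, filters and tools (DESeq2 1.42.0, limma 3.58.1 voom), only 6 libraries, a replicate block, and each library left out.

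Lists and tests were chosen with earlier results of these data known. Named genes are, per list, up to 2 called members of each direction with the smallest adjusted p (the highest mean CPM where none was called; all members of lists with fewer than 3 tested), and outside the lists the 2 that gained and the 2 that lost the most CPM among called genes with no overlap between groups. A root marker list and a second set of family lists were planned but not used here. Counts limit precision. The 95% intervals of log2 fold changes come from the same fit as the standard errors and include the spread between replicate libraries.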

Additional observations from a re-analysis of the deposited data

How the results depend on the processing

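Of 646 values of the 38 named genes under 17 alternatives, 596 kept direction and call, 50 lost the call, in 7 genes, and none changed direction. Nearly all named genes were chosen by their call in the main fit, so these numbers do not describe called genes in general. Of all called genes, 1399 of 2094 raised and 1116 of 2128 lowered were called in all 6 fits without 1 mock or ABA library. Over all genes, the omission of 1 of the 9 libraries gave 1558 to 2223 raised and 1286 to 2347 lowered genes, the lowest without ABA replicate 2; the cause was not tested. By the test against 2-fold, 457 to 541 rose and 253 to 370 fell. With library totals, 1796 rose and 2098 fell. Of 612 list counts, 46 moved by over 1.5 times, any move to or from 0 included. All of these were counts between 0 and 2. Many of the 612 were 0 in the main fit and stayed 0. Fallen ABA biosynthesis genes went from 1 to 0 with median-of-ratios factors, no filter, edgeR's filterByExpr, limma voom or a replicate block, and 0 to 1 on omission of a library. Risen biosynthesis genes went from 2 to 1 with library totals, and 1 to 2 on omission. Fallen JAZ repressors went from 1 to 0 with only the 6 libraries, limma voom or a replicate block (0 to 1 on omission). Fallen genes of jasmonate synthesis, MYC2 and wound proteins went from 1 to 0 with median-of-ratios factors, no filter, only the 6 libraries or limma voom (0 to 1 on omission). Risen ethylene genes went from 1 to 2 without a filter, with DESeq2, limma voom or a replicate block (1 to 2 on omission). On omission fallen 8'-hydroxylases were 0 to 1 and fallen bZIP factors 0 to 1.

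No pairing by replicate number was seen between mock and ABA, though shared handling of same-numbered samples is not excluded by so few libraries. Deviations of same-numbered mock and ABA libraries from their group means correlated at -0.04, -0.02 and 0.01. No mock library correlated best with the ABA library of its number. Between mock and iSB09 these correlations were -0.19, 0.00 and 0.34, and between ABA and iSB09 0.06, 0.04 and -0.07. With the replicate block 1963 genes rose and 1941 fell.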

Other observations

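Listed genes too weakly expressed to be tested are given here as counts, with no test. In the ethylene list Solyc01g095080.3 had 5, 8 and 2 counts in mock and 5, 9 and 14 in ABA. In the gibberellin list Solyc06g066820.4 had 6, 9 and 6 counts in mock and 2, 1 and 3 in ABA, and Solyc06g035530.3 had 3, 1 and 12 against 4, 3 and 3. In the CBF list Solyc03g026280.3 had 8, 6 and 11 counts in mock and 5, 1 and 7 in ABA. In the Rubisco and chlorophyll a/b-binding list Solyc07g017950.3 had 1, 4 and 13 against 3, 4 and 2. Of the 12 listed JAZ repressors, 4 had between 0 and 3 counts over all 6 libraries.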
